A study of Mus musculus with 8 samples.

Results

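The collagen genes are described here across 4 WT and 4 Nkx2-1cKO samples of mouse medial ganglionic eminence (MGE), the ventral forebrain region that gives rise to many cortical and striatal interneurons. Members were chosen by name alone, as genes whose symbol has the form of Col followed by a type number and a chain number. Of 44 such genes in the RefSeq gene table, 39 were represented on the array by 67 probes, among 17178 named genes in all. Col6a3, Col6a5, Col12a1, Col20a1 and Col22a1 had no matched probe. The samples were micro-dissected MGE from C57BL/6 embryos at embryonic day 13.5, and each was hybridised to its own 1-colour Agilent whole mouse genome array. The WT samples carried the genotype Nkx2-1flox/+;Olig2tva-cre- and the mutants Nkx2-1flox/+;Olig2tva-cre+, so both groups shared the C57BL/6 strain and the floxed Nkx2-1 allele. The genotype on the labels names 1 floxed allele in the mutants, while the study describes its conditional mutant from floxed Nkx2-1 and Olig2-tva-Cre strains. The Cre is driven from Olig2, a gene of ventral neural progenitors and their descendants, so the deletion is limited to cells in which that gene was active. Nothing in the labels says whether the 4 samples of a group came from separate embryos, so p-values measure the spread between these samples, which may be in part technical.

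Collagens are secreted or membrane-bound proteins whose chains wind into a triple helix. Fibrillar collagens such as types I and III are made mainly by mesenchymal cells, which in the embryonic head include the meninges around the brain. Types IV and XVIII belong to the basement membranes of blood vessels and of the pial surface, and neural progenitors and neurons also express some members of the family. In a bulk sample, fewer cells of a type and less RNA per cell cannot be told apart.

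Signals are given as log2 values after scaling every array to its own 75th percentile, and differences are Nkx2-1cKO minus WT on that log2 scale. The share of probes that rose well above background ran from 71.1% to 79.5% over the arrays, and no spot was saturated. Nkx2-1 lay between 1.82 and 1.95 on the WT arrays and between -4.66 and -4.26 on the Nkx2-1cKO arrays. Each array thus matched the group in its title. The mutant signal was 1.24% of that in WT, although the genotype labels name 1 floxed allele in the mutants. All 12 listed markers of the ganglionic eminence were measurable, among them Six3, a homeobox gene of the ventral forebrain, which rose by 0.99 (limma adjusted p = 0.00336). A pair of WT arrays stood apart. WT 1 had raised dim signals, with a lowest level well above background of -5.64 against -7.14 to -6.75 on the other arrays. WT 4 had high signals of mesenchymal genes, including several collagens, and differences of over 0.3 either way that moved by over 1.5 times without it are given both ways.

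Few collagen genes differed between the genotypes, and with the processing described below the family as a whole was centred near 0. Of the 39 genes, 33 were tested, because a probe stood well above background on 4 or more of the 8 arrays. In limma, 1 of the 33, Col19a1, was lower in Nkx2-1cKO at an adjusted p under 0.05, beside 0.851% of all 14449 genes tested. No collagen gene was higher, beside 0.491% of all genes, and at an unadjusted p under 0.05 there were 3 collagen genes, all lower, beside 5.22% of all genes lower and 4.26% higher at that p. The median difference over the 33 genes was -0.053, against -0.0017 over all genes, with 20 genes below 0 and 13 above. The median lay above 0 with quantile normalization (0.020), with centring on the median (0.067) and with normexp background correction (0.23). The groups of 4 arrays did not overlap for 2 collagen genes, Col19a1 and Col6a1, both lower, where 4.02% of all genes had non-overlapping groups in that direction. None did so in the higher direction, beside 2.82% of all genes.

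The precision differed widely among the members. The standard error of the difference ran from 0.09 to 0.81 with a median of 0.18. For 22 of the 33 genes the 95% interval lay within 1 either way on the log2 scale, and for 11 it reached beyond that. The interval included 0 for 30 genes and lay below 0 for Col19a1, Col5a2 and Col26a1. Of 19 genes with over 1 tested probe, 14 had the same sign on each of their probes, and Col16a1, Col25a1, Col27a1, Col4a1 and Col6a4 did not. The number of arrays limits the precision, since the smallest p of an exact permutation test with 4 arrays against 4 was 0.0286.

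**Figure D1:**
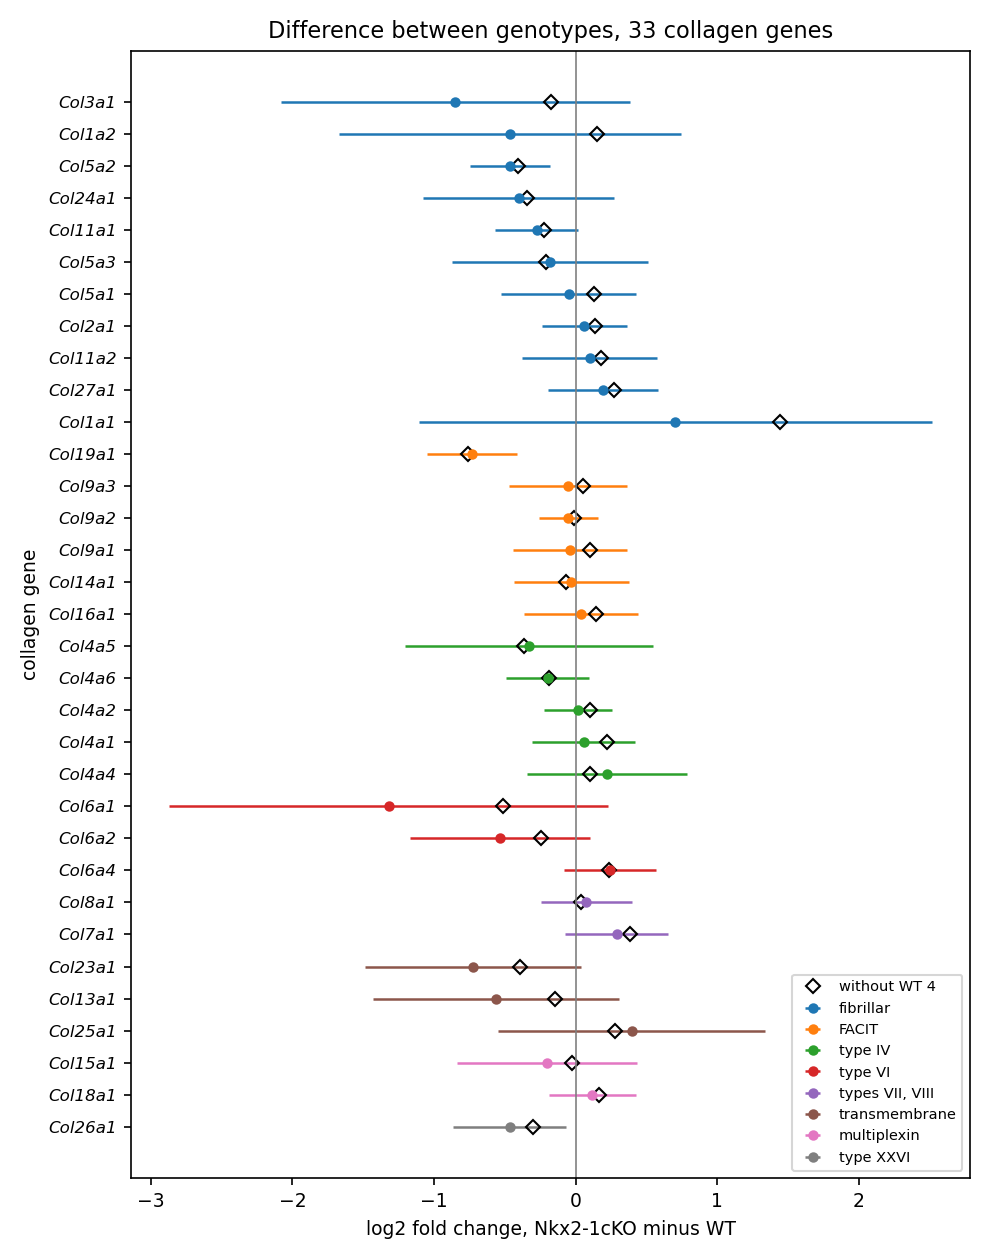
Log2 fold change (Nkx2-1cKO minus WT) of the 33 tested collagen genes, coloured by class, with 95% intervals as bars from limma and open diamonds for the value without WT 4. Col19a1, at -0.73, Col5a2 and Col26a1 lie below 0 with their intervals, and of these only Col19a1 passed the adjusted threshold. The intervals of Col1a1, Col3a1 and Col6a1 are the widest, and their diamonds move to 1.44, -0.17 and -0.52.

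Col19a1 encodes the chain of type XIX collagen, a FACIT collagen (a class that sits on the surface of fibrils or in basement membrane zones) that is also expressed by subsets of interneurons in the brain. Its signal was -2.70, -2.81, -2.84 and -2.90 on WT 1 to 4. On Nkx2-1cKO 1 to 4 it was -3.83, -3.26, -3.60 and -3.48. The lowest WT array was thus above the highest mutant array, and WT 4 was the lowest of the WT arrays. The difference was -0.73 ± 0.14 (SE, n = 4 and 4), or 60.2% of the WT signal, with a limma adjusted p of 0.0454 and an exact two-sided permutation p of 0.0286. It was -0.60 on the first slide and -0.86 on the second, and with the slide as a block the adjusted p was 0.0159.

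The other probes of Col19a1 were closer to their background. The second probe rose well above background on 3 WT arrays and on 2 Nkx2-1cKO arrays, and it differed by -1.42 ± 0.52 (SE), at a limma adjusted p of 0.449. The third was well above background on 1 array of each group and was not tested. The call on the first probe was close to the threshold: with normexp background correction the difference was -0.11 (adjusted p = 0.908), and leaving out any 1 array other than Nkx2-1cKO 2 moved the adjusted p to between 0.0943 and 0.147. With the replicate number as a block the adjusted p was 0.341.

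**Figure D2:**
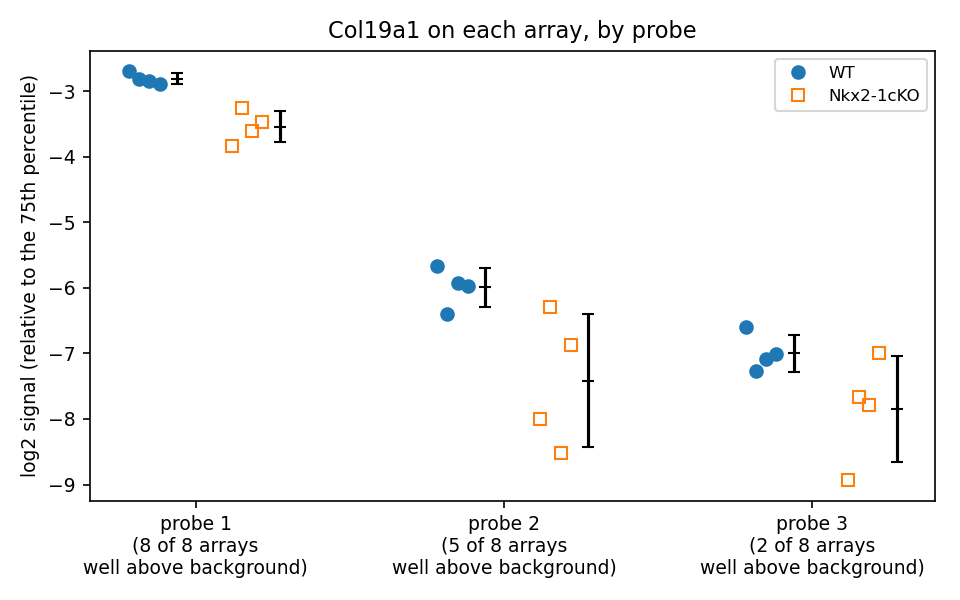
Log2 signal of the 3 Col19a1 probes on each array, with filled circles for WT, open squares for Nkx2-1cKO, and black bars for the mean and SD of 4 arrays. On probe 1 the WT arrays lie between -2.90 and -2.70 and the Nkx2-1cKO arrays between -3.83 and -3.26, while on probes 2 and 3 the groups overlap.

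The fibrillar collagens of types I and III varied widely between the WT arrays. Col3a1, the chain of type III collagen in extensible connective tissue, was -1.61, -1.54, -1.18 and 1.26 on WT 1 to 4. It was -1.65, -1.87, -1.49 and -1.45 on Nkx2-1cKO 1 to 4. WT 4 stood 6.52-fold above the mean of the other 3 WT arrays, while those 3 overlapped with the mutants. The difference was -0.85 ± 0.55 (SE; limma adjusted p = 0.659) with all arrays and -0.17 (adjusted p = 0.680) without WT 4.

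Col1a2 encodes the α2 chain of type I collagen, the main collagen of bone, skin and meninges. It was -1.85, -1.79, -1.16 and 0.87 on WT 1 to 4. On Nkx2-1cKO 1 to 4 it was -1.50, -2.07, -1.13 and -1.09. Again WT 4 was above all other arrays, by 5.55-fold over the mean of the other WT arrays, and the rest overlapped. The difference was -0.47 ± 0.54 (SE; limma adjusted p = 0.774) and turned to 0.15 (adjusted p = 0.824) without WT 4.

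Col1a1 encodes the α1 chain that is joined with α2 in the same trimer. It was -2.47, -5.67, -3.40 and -0.90 on WT 1 to 4, and -2.82, -2.57, -2.35 and -1.88 on Nkx2-1cKO 1 to 4. Here WT 4 was the highest array and WT 2 the lowest, with all mutants in between. The difference was 0.70 ± 0.81 (SE; limma adjusted p = 0.772), and it was 1.44 without WT 4 and -0.15 without WT 2. The second tested probe, also lowest in WT 2 at -6.48 and highest in WT 4 at -2.09, differed by 0.19. The low Col1a1 signal of WT 2 had no counterpart in Col1a2 or Col3a1, which in WT 2 lay within the range of the other arrays. In the WT group the SD of Col1a1, 1.99, was larger than that of 99.8% of all tested genes, and those of Col3a1 and Col1a2 were larger than 98.8% and 98.2%. Col6a1 of type VI lay between Col1a1 and Col3a1, with an SD of 1.65.

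The remaining fibrillar chains varied less in the WT group. Col2a1, the chain of type II collagen in cartilage and notochord that is also made by neuroepithelium, was 0.47, 0.71, 0.33 and 0.81 on WT 1 to 4 and 0.81, 0.53, 0.79 and 0.43 on Nkx2-1cKO 1 to 4. The groups overlapped fully, and the difference was 0.06 ± 0.13 (SE), with a 95% interval from -0.24 to 0.36. Col5a2, a chain of type V collagen that helps to start fibrils, differed by -0.47 ± 0.13 (SE; limma adjusted p = 0.208, exact permutation p = 0.0571) and by -0.40 without WT 4. Its partner Col5a1 differed by -0.05, and Col5a3 by -0.18. The type XI chains Col11a1 and Col11a2 differed by -0.27 and 0.10, and Col24a1 and Col27a1 by -0.40 and 0.19, none past the threshold. Col24a1 was at -0.19 without WT 1 and turned to 0.65 with normexp, where Col5a1 and Col5a3 were at 0.032 and 0.58. Over the 11 fibrillar genes the median was -0.18, with 7 below 0 and 4 above.

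**Figure D3:**
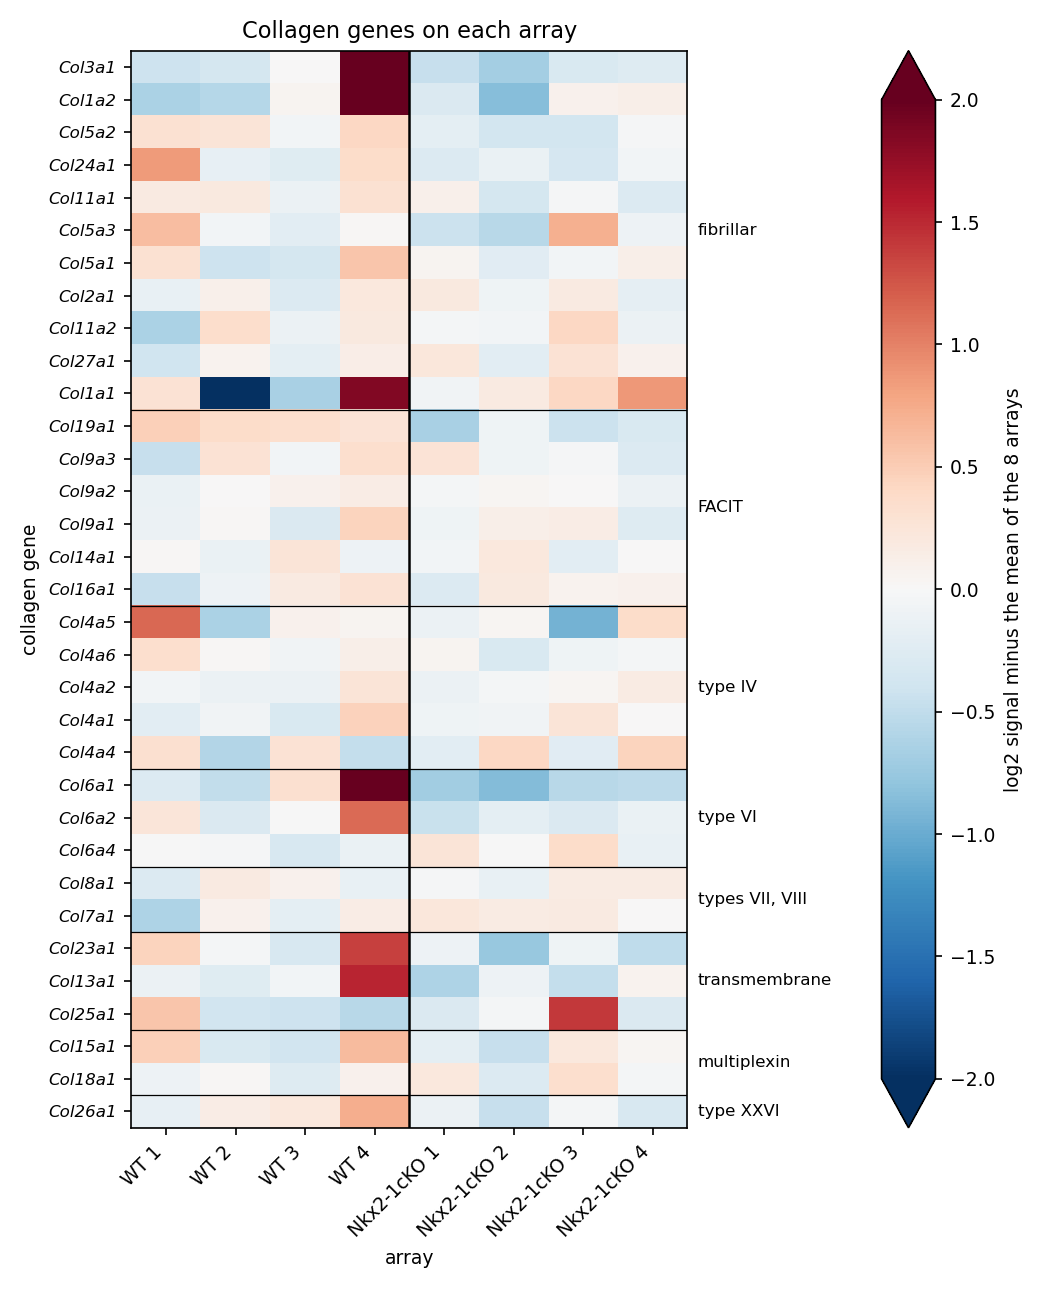
Log2 signal of the 33 tested collagen genes on each of the 8 arrays minus the gene's mean over the arrays, grouped by class, with the colour scale ending at 2 either way. The column of WT 4 is the highest of the 8 in 19 genes, with Col3a1, Col1a2, Col1a1 and Col6a1 the darkest.

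Type VI collagen forms beaded filaments in the matrix around mesenchymal cells. Col6a1 was -6.27, -6.48, -5.67 and -2.92 on WT 1 to 4 and -6.69, -6.87, -6.55 and -6.53 on Nkx2-1cKO 1 to 4. The groups did not overlap, but the gap between the lowest WT and the highest mutant array was small, and only 3 WT arrays and 1 mutant array had a signal well above background. The difference was -1.32 ± 0.69 (SE; limma adjusted p = 0.626, exact permutation p = 0.0286), fell in size to -0.52 without WT 4, and was 0.23 with normexp background correction. Col6a2, which is encoded next to Col6a1 and pairs with it, differed by -0.53 ± 0.28 (SE) with all arrays and by -0.25 without WT 4, and it turned to 0.24 with normexp. Col6a4 differed by 0.24.

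WT 4 was the highest of the 8 arrays for 19 of the 33 collagen genes, and for 10.8% of all genes. By its excess over the mean of the other 3 WT arrays, Col6a1 ranked 8, Col1a1 ranked 9, Col3a1 ranked 12 and Col1a2 ranked 13 of the 14449 genes. The genes ahead of Col6a1, chosen after their values were seen, were Lum, Slc22a6, Dcn, Mrgprf, Cldn11, Defa31 and Aldh1a2. Elf4 and Hmx3 ranked 10 and 11, ahead of Col3a1 and Col1a2. Lum and Dcn encode lumican and decorin, small proteoglycans that bind collagen fibrils. Cldn11 encodes a claudin of the arachnoid barrier, and Aldh1a2 the retinoic acid enzyme of the meninges. Dcn, well above background on all 8 arrays, was in excess by 3.62. Lum was well above background on 2 of the 4 WT arrays and Col6a1 on 3, so their excess is in part over background signal. Col19a1 did not take part, with WT 4 minus the mean of the other WT arrays at -0.11.

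Transmembrane collagens, and Col26a1 from outside that class, showed a mixture of these patterns. Col13a1, a collagen of the neuromuscular junction and of adhesion sites, was between -5.30 and -5.12 on WT 1 to 3 and -3.55 on WT 4, and it differed by -0.56 with all arrays and by -0.15 without WT 4, and with normexp it turned to 0.43. Col23a1 differed by -0.73 ± 0.34 (SE; limma adjusted p = 0.599) and by -0.39 without WT 4, and it was 0.0078 with normexp. Col25a1, a collagen of neurons and developing muscle, differed by 0.39 with its highest value, -3.95, on Nkx2-1cKO 3, and by -0.0099 without that array. Its second tested probe differed by -0.50. Col26a1, the type XXVI chain, differed by -0.47 ± 0.18 (SE; limma adjusted p = 0.495), with WT 4 highest at 1.76, and by -0.30 without WT 4.

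The basement membrane collagens did not pass the threshold and differed by small amounts. Col4a1, the α1 chain of type IV collagen that is found in all basement membranes, was 1.52, 1.67, 1.43 and 2.19 on WT 1 to 4 and 1.65, 1.66, 1.99 and 1.74 on Nkx2-1cKO 1 to 4. Its partner Col4a2 was 0.79, 0.73, 0.72 and 1.09 on WT 1 to 4 and 0.73, 0.80, 0.87 and 1.00 on Nkx2-1cKO 1 to 4. In both genes WT 4 was the highest array and the other arrays overlapped between the genotypes. The difference was 0.06 ± 0.16 (SE) for Col4a1, with a 95% interval from -0.30 to 0.42. For Col4a2 it was 0.02 ± 0.11 (SE), with an interval from -0.22 to 0.26. The sign of both changed with some arrays or scalings left out or replaced, as values this near 0 do. Col4a1 and Col4a2 lie next to each other on opposite strands, and their RefSeq windows of 300 bases, which reach from before the start to a little past it, share 78 bases. The 250 bases before each start do not overlap.

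Col18a1, the chain of type XVIII collagen whose end fragment is endostatin, was 1.61, 1.73, 1.45 and 1.79 on WT 1 to 4 and 1.91, 1.44, 2.04 and 1.67 on Nkx2-1cKO 1 to 4. The groups overlapped, and the difference was 0.12 ± 0.14 (SE), with an interval from -0.19 to 0.42. Its relative Col15a1 differed by -0.20, and by -0.029 without WT 4. The minor type IV chains Col4a4, Col4a5 and Col4a6 differed by 0.22, -0.33 and -0.20, and the value of Col4a5 was 0.00097 without WT 1. Col7a1, the chain of the anchoring fibrils below epithelia, and Col8a1, a network collagen of vessel walls, differed by 0.29 and 0.08. Of the FACIT collagens other than Col19a1, the probes representing Col14a1, Col16a1, Col9a1, Col9a2 and Col9a3 lay between -0.06 and 0.04, although Col9a1 is the neighbour of Col19a1 in the genome. The dimmer second tested probe differed by -1.26 for Col16a1 (limma adjusted p = 0.554) and by -0.88 for Col14a1 (limma adjusted p = 0.760). With normexp these second probes turned to 0.34 and 0.43.

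Several of these genes separated by slide instead of by genotype. Each of the 2 slides held 2 arrays of each genotype. Col4a4 was between -0.47 and -0.30 on all arrays of the first slide and between -1.33 and -0.96 on those of the second. Col2a1 was between 0.33 and 0.53 on the first slide and between 0.71 and 0.81 on the second. Col18a1, Col11a2 and Col9a3 were also higher on the second slide without overlap, which makes 4 genes with Col2a1, where 12.4% of all genes did so. Col14a1 and Col4a4 were lower on it, where 9.77% of all genes did so. These shares of the collagens were near those of all genes, and with the slide as a block Col19a1 was still the 1 collagen gene called.

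The collagens of types I and III were set beside other mesenchymal genes. The mesenchyme and meninges list had 19 tested genes of 20, and all 19 were below 0, with a median of -0.48. At an unadjusted p under 0.05 there were 5, all lower, beside 5.22% of all genes, and only Pdgfra, a receptor of mesenchymal cells and of oligodendrocyte precursors, passed the threshold, at -1.76 (limma adjusted p = 5.04e-05). The others with the largest differences were Dcn at -2.45 ± 0.98 (SE; adjusted p = 0.527) and Lum at -1.95 ± 1.60 (SE; adjusted p = 0.699), the latter well above background on 2 arrays of each group. Without WT 4 they were at -1.55 and -0.54, and Lum was at -1.30 and -1.27 without Nkx2-1cKO 1 and 2. The mean log2 signal of the 19 genes was -3.19, -3.55, -3.17 and -2.00 on WT 1 to 4 and -3.91, -4.03, -3.65 and -3.27 on Nkx2-1cKO 1 to 4. Without WT 4, 13 of the genes were below 0 and 6 above, with a median of -0.15, and with normexp background correction and all arrays 8 were below 0 with a median of 0.072. With normexp Pdgfra was at -1.05 (limma adjusted p = 0.373). The summed level of the list, relative to the 75th percentile, was between 5.83 and 10.4 in WT and between 5.35 and 6.58 in Nkx2-1cKO.

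Over the 8 arrays, Col3a1 followed the mean of the mesenchyme list with a Pearson r of 0.92 (exact permutation p = 0.00213, adjusted p = 0.00837 over 5 relations) and a Spearman rho of 0.83 (p = 0.0154, exact permutation). Col1a2 had an r of 0.88 (exact permutation p = 0.0191, adjusted p = 0.0318) and a rho of 0.55 (p = 0.171, exact permutation). Col1a1 had an r of 0.47 (exact permutation p = 0.212, adjusted p = 0.212) and a rho of 0.31 (p = 0.462, exact permutation). Col1a1 thus did not pass, and the relations of Col3a1 and Col1a2 rest on the arrays at the ends of the range. Without WT 4 alone r was 0.76 for Col3a1, 0.43 for Col1a2 and 0.0033 for Col1a1. Without WT 4 and Nkx2-1cKO 2, the arrays farthest from the median of the list, r was 0.57 for Col3a1, 0.07 for Col1a2 and 0.13 for Col1a1. With slide means subtracted r was 0.94, 0.91 and 0.49 in that order, and 4 arrays per slide or per genotype were too few for a value within each.

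The type IV chains were set beside the endothelium list, whose 21 genes were all tested. Its median difference was 0.03. In limma no gene of it passed the threshold and 0 were at an unadjusted p under 0.05. Its mean log2 signal was between -0.85 and -0.58 in WT and between -0.85 and -0.65 in Nkx2-1cKO. The largest differences were 0.22 for Egfl7 and -0.20 for Tek, which were 0.061 without WT 1 and -0.077 without WT 4. Col4a1 followed the mean of the list with an r of 0.87 (exact permutation p = 0.00335, adjusted p = 0.00837) and a rho of 0.81 (p = 0.0218, exact permutation). Col4a2 had an r of 0.61 (exact permutation p = 0.113, adjusted p = 0.142) and a rho of 0.67 (p = 0.0831, exact permutation). Without WT 4 and Nkx2-1cKO 3, the arrays farthest from the median of this list, r was 0.55 for Col4a1 and 0.06 for Col4a2. With slide means subtracted r was 0.80 and 0.89.

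**Figure D4:**
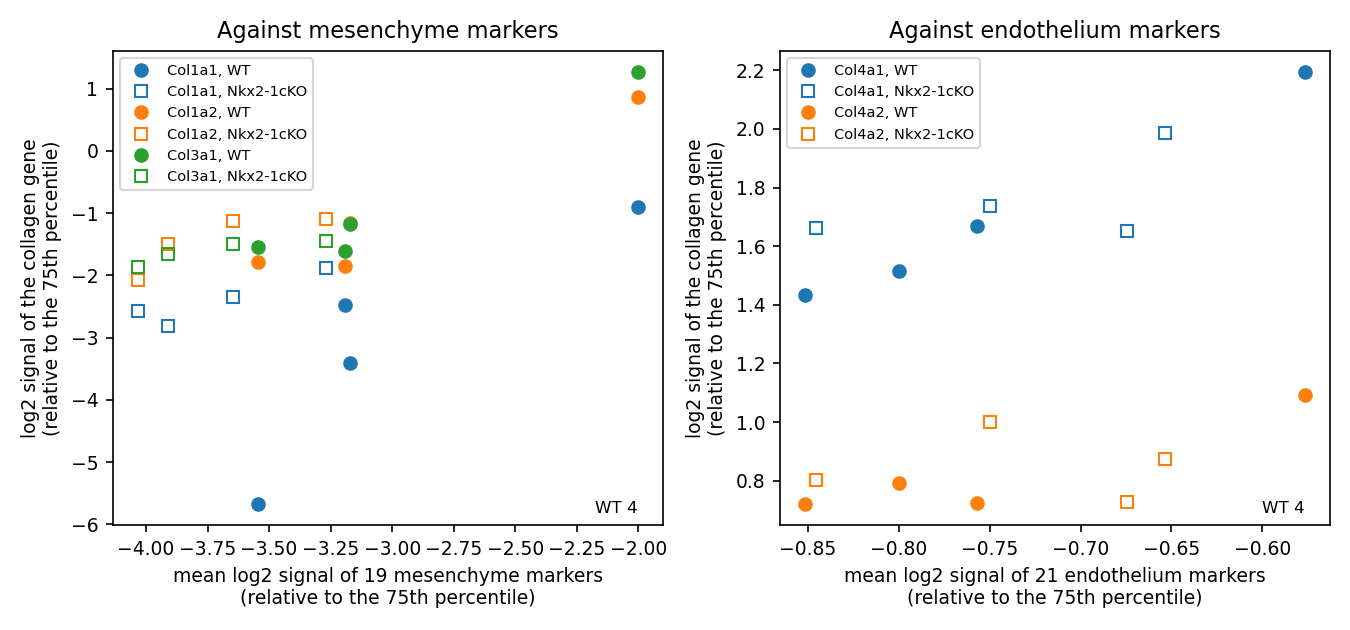
Left, log2 signal of Col1a1, Col1a2 and Col3a1 on each array against the mean log2 signal of 19 mesenchyme markers, and right, Col4a1 and Col4a2 against that of 21 endothelium markers, with filled circles for WT and open squares for Nkx2-1cKO. WT 4 is the rightmost array in both panels, at -2.00 and -0.58, and lies apart from the other 7 in the left panel.

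The promoters of 4 members are shown because the data single them out, Col19a1 for its lower signal in Nkx2-1cKO and Col3a1, Col1a2 and Col6a1 for their shared high signal in WT 4. Col1a1, which shared it, was not matched in the RefSeq promoter table. Each sequence is the 250 bases before the RefSeq start of the gene on build GRCm38.p6, read 5′ to 3′ on the gene's strand. They are chr1:24587438-24587687 on the minus strand for Col19a1, chr1:45311288-45311537 on the plus strand for Col3a1, chr6:4505368-4505617 on the plus strand for Col1a2, and chr10:76726045-76726294 on the minus strand for Col6a1. Capitals mark 3 motifs on either strand. The first is TATAAA, found where many promoters position transcription, and the next is CCAAT, bound by the factor NF-Y. The last is CAAGTG, the core of sites bound by NK2 homeodomain proteins such as NKX2-1.
Col19a1: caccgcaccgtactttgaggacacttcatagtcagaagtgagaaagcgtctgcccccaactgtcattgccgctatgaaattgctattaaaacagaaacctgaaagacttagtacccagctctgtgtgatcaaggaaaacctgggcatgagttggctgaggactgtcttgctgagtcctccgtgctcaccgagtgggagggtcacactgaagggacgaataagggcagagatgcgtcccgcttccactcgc
Col3a1: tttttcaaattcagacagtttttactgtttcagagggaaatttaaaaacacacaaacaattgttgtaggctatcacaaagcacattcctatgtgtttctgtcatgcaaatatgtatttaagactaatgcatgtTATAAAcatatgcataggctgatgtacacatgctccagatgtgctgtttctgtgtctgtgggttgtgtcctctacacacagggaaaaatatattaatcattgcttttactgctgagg
Col1a2: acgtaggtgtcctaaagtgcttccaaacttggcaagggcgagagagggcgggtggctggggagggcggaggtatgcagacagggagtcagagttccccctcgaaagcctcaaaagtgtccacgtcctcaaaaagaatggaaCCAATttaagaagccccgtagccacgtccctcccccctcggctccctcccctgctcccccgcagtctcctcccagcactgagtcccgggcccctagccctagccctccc
Col6a1: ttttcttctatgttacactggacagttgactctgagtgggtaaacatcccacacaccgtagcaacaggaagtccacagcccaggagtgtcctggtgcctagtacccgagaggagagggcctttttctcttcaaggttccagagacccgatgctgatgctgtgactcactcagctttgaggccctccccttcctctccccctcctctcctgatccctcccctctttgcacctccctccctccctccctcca

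The Col3a1 window held TATAAA once, 117 bases before the start, and the Col1a2 window held CCAAT once, 109 bases before it. The Col19a1 and Col6a1 windows held none of the 3 motifs. Among the 38 windows of 35 collagen genes, TATAAA on either strand was in 5, CCAAT in 13 and CAAGTG in 6. Those counts were 13.2%, 34.2% and 15.8% of the collagen windows, beside 12.4%, 33.8% and 11.6% of all 32851 windows of that length. The letters of no motif overlap those of another, and a match is a description of the sequence only.

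The 6 genes that were not tested were dim. Col4a3, the neighbour of Col4a4, and Col28a1 were not well above background on any array. Col10a1, the collagen of hypertrophic cartilage, and Col17a1, the hemidesmosome collagen, were so on 1 WT array each. Col6a6 reached that level on 2 WT arrays, and Col8a2 on 2 WT arrays and 1 Nkx2-1cKO array.

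None of the enzymes and chaperones that build collagen passed the threshold. All 18 genes of collagen synthesis were tested in limma, 0 were at an unadjusted p under 0.05, and the median difference was -0.0074. Serpinh1, the collagen chaperone of the endoplasmic reticulum named here after its value was seen, differed by -0.02 ± 0.11 (SE). The largest differences were -0.63 for P3h2, a prolyl 3-hydroxylase, and -0.44 for P4ha3, a chain of prolyl 4-hydroxylase, both dim. Without WT 1 they were at -0.20 and -0.17, and with normexp they turned to 0.62 and 0.60. Of 13 genes for processing and cross-linking, 10 were tested and none passed. At an unadjusted limma p under 0.05, 1 was lower, beside 5.22% of all genes. Adamts2, which cuts the N-terminal propeptide of fibrillar collagens, differed by -1.21 ± 0.52 (SE; limma adjusted p = 0.568), and Loxl4, a lysyl oxidase, by -1.08 ± 0.65 (SE; adjusted p = 0.654). Without WT 1 they were at -0.73 and -0.52, and with normexp they turned to 0.14 and 0.48.

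Of 11 collagen receptors 8 were tested in limma and none passed, with a median of -0.09. At an unadjusted limma p under 0.05, 1 was lower, beside 5.22% of all genes. Itga2, the α2 integrin chain, differed by -1.59 ± 0.69 (SE; limma adjusted p = 0.572) at a signal that was well above background on 4 of the 8 arrays, and Ddr2, a receptor kinase for fibrillar collagen, by -0.32. Itga2 was at -1.02 without WT 1 and Ddr2 at -0.16 without WT 4, and with normexp they turned to 0.49 and 0.14. Adgrg1, the receptor for type III collagen on progenitors and named after its value was seen, differed by 0.02 ± 0.11 (SE).

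Among the partners of collagen in basement membranes, Smoc1 stood out. It encodes a secreted SPARC-related protein and was 0.68, 1.08, 0.68 and 0.85 on WT 1 to 4 and -0.68, -0.89, -0.59 and -0.88 on Nkx2-1cKO 1 to 4. The difference was -1.58 ± 0.12 (SE; limma adjusted p = 0.000178), and it was the 1 gene of 15 tested, from a list of 16, that passed. Lama2, a laminin chain, had the next largest difference at -0.65, with -0.28 without WT 1 and 0.45 with normexp, and the list's median was -0.12. Lama1 at -0.46 and Lama5 at 0.53, laminin chains named because their groups did not overlap, had limma adjusted p of 0.271 and 0.194. In the list 2 tested genes were lower and 1 higher with groups that did not overlap, beside 4.02% and 2.82% of all genes. Of 12 genes of collagen degradation none passed in limma, with 3 lower and 1 higher at an unadjusted p under 0.05. Of all genes, 5.22% were lower and 4.26% higher at that p. Timp4, an inhibitor of matrix metalloproteinases, differed by -0.83 ± 0.20 (SE; adjusted p = 0.118, and 0.0282 with the slide as a block), and Mmp16, a membrane-bound metalloproteinase, by -0.79 (adjusted p = 0.657). Mmp16 was at -0.42 without WT 1, and with normexp Timp4 and Mmp16 turned to 0.18 and 0.50.

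Markers of other tissues that a dissection can carry gave no call. In limma no gene passed the threshold among 12 tested markers of mural cells, 15 of microglia and macrophages, 10 of erythroid cells, 5 of choroid plexus, 4 of cartilage and 10 of pallium. At an unadjusted limma p under 0.05 there was 1 lower gene in the cartilage list, 1 in the pallium list and 0 in the others. Of all genes, 5.22% were lower and 4.26% higher at that p. The median differences were -0.17, -0.02, 0.07, -0.07, -0.34 and -0.04 in that order. The members with the largest differences were Des at -0.72 and Tagln at -0.38 for mural cells, Lyve1 at -1.23 and Mrc1 at -0.71 for macrophages, Gata1 at -0.37 and Hbb-y at 0.23 for erythroid cells, Kl at -0.73 and Clic6 at -0.66 for choroid plexus, Matn4 at -1.42 and Comp at -0.47 for cartilage, and Eomes at -0.58 and Bhlhe22 at -0.50 for pallium. Without WT 1, Des was at -0.26, Comp at -0.12, Gata1 at 0.027 and Clic6 at 0.068. Mrc1 was at -0.28 without WT 4, Kl at -0.34 without WT 2 and Eomes at -0.28 without Nkx2-1cKO 3. The summed level of the mural list was between 22.6 and 26.1 in WT and between 22.5 and 23.5 in Nkx2-1cKO, with WT 4 at the top, and that of the choroid plexus list was highest in WT 1, at 0.68. The part of mesenchymal and meningeal cells in the collagen values of WT 4 was not tested.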

How the data were processed

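RNA from micro-dissected MGE was amplified, labelled with Cy3-CTP and hybridised to 1-colour Agilent arrays. The authors deposited intensity values from Agilent Feature Extraction (version 10.1 in the submitters' processing notes), background-subtracted per spot and not scaled between arrays. The steps after Feature Extraction are not given in the sources used here. Control and outlier spots were dropped, log2 was taken relative to each array's 75th percentile, and spots of a probe were averaged. Accessions tied 24844 of the 41174 probes to 17178 genes of a RefSeq table. Probes that rose well above background on 4 or more of the 8 arrays (31283) were fitted with limma 3.58.1 in R 4.3.3 (lmFit, eBayes with a variance trend, Benjamini-Hochberg over all probes), and the probe with the highest mean signal represented its gene. Groups came from the sample titles and genotypes. The steps were tested on simulated data.

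Per-array values are given for Col1a1, Col1a2, Col2a1, Col3a1, Col4a1, Col4a2, Col18a1 and every collagen gene called or not overlapping. Of each other list, genes past the threshold and the 2 with the largest difference are named, and Nkx2-1 checks the groups in the titles. Collagens and lists were chosen with earlier results of these data known. Alternatives were quantile normalization, median centring, normexp with an offset of 50, other filters, slide and replicate number as blocks, no trend, averaging the probes of a gene, each array left out and, chosen after seeing the data, array weights. Same-numbered arrays lay on different slides, so whether replicate numbers pair the samples could not be told.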

Additional observations from a re-analysis of the deposited data

Results flagged for a closer look

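Among 126 groups of 4 arrays examined (each genotype for the tested collagens and the named genes), 7 held 1 array far from the other 3 by Dixon's criterion, where chance gives about 1 in 20 groups, or 6.3. Col3a1 was 1.26 in WT 4, with the other WT arrays between -1.61 and -1.18. Col13a1 was -3.55 in WT 4, with the others between -5.30 and -5.12. In WT 1, the array with raised dim signals, Col25a1 was -4.81 against -5.92 to -5.74 on the other WT arrays. Loxl4, a lysyl oxidase, was -4.37 there against -6.71 to -6.52, and Clic6, a choroid plexus channel, was -2.48 against -5.58 to -5.28. In Nkx2-1cKO 3, Col11a2 was -0.61 against -1.15 to -1.06, and Col25a1 was -3.95 against -5.65 to -5.40.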

How the results depend on the processing

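No collagen gene was higher in Nkx2-1cKO under any alternative. The count of lower genes, 1, became 0 with quantile normalization, centring on the median, normexp, no filter on dim probes, a fit with no trend, averaging the probes of a gene and the replicate block (Col19a1 adjusted p = 0.341), and lay between 0 and 1 with each array left out. Correlations of same-numbered deviations from the group mean were -0.21, -0.29, -0.19 and -0.48, and no number correlated best with itself. Same-numbered arrays always lay on different slides, so these correlations cannot tell whether the numbers pair the samples. The median of the collagens was 0.23 with normexp (all genes 0.083), -0.20 without the filter, -0.31 with the mean of probes, and -0.15 to 0.040 with each array left out. Median centring moved the median of all genes to 0.12 and that of the collagens to 0.067. The cause was not tested.

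With normexp r was 0.61 for Col1a2, 0.59 for Col3a1, 0.26 for Col4a1 and -0.26 for Col4a2. For Col4a2 r was 0.86 with median centring and 0.89 with slide means subtracted. Without the farthest arrays r was 0.071 for Col1a2, 0.57 for Col3a1 and 0.55 for Col4a1. With each array left out it ran from 0.0033 to 0.69 for Col1a1, 0.43 to 0.95 for Col1a2, 0.76 to 0.95 for Col3a1, 0.75 to 0.95 for Col4a1 and 0.23 to 0.77 for Col4a2.

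Signs that turned concerned differences that were not called. With normexp Col4a1 was -0.029, Col4a2 -0.0037, Col6a1 0.23, P3h2 0.62, P4ha3 0.60, Adamts2 0.14, Loxl4 0.48, Itga2 0.49, Ddr2 0.14, Lama2 0.45, Timp4 0.18, Mmp16 0.50, Tek 0.010, Des 0.36, Lyve1 0.39, Mrc1 0.45, Gata1 0.51, Kl 0.34, Clic6 0.14, Matn4 0.40, Comp 0.34, Col13a1 0.43, Col14a1 0.59, Col15a1 0.49, Col23a1 0.0078, Col24a1 0.65, Col4a5 0.40, Col4a6 0.050, Col5a1 0.032, Col5a3 0.58, Col6a2 0.24, Col9a1 0.41 and Adgrg1 -0.065. With quantile normalization Col4a2 was -0.015, P4ha3 0.081, Col14a1 0.32, Col15a1 0.12, Col24a1 0.020, Col5a3 0.11, Col9a1 0.12 and Adgrg1 -0.027, and with centring on the median Col14a1 was 0.089, Col5a1 0.070, Col9a1 0.081, Col9a2 0.067, Col9a3 0.064 and Serpinh1 0.10. With the mean of the probes of a gene Col16a1 was -0.61, Col25a1 -0.052 and Col6a4 -0.019, and with array weights Col2a1 was -0.015, Col4a1 -0.0084, Col11a2 -0.13, Col14a1 0.017, Col16a1 -0.039, Col4a5 0.059, Col5a1 0.069 and Serpinh1 0.073. With each array left out, Adgrg1 ran from -0.036 to 0.11, Clic6 from -0.97 to 0.068, Col11a2 from -0.096 to 0.23, Col14a1 from -0.11 to 0.049, Col16a1 from -0.11 to 0.14, Col1a1 from -0.15 to 1.44, Col1a2 from -0.76 to 0.15, Col25a1 from -0.0099 to 0.65, Col2a1 from -0.021 to 0.14, Col4a1 from -0.033 to 0.22, Col4a2 from -0.033 to 0.10, Col4a5 from -0.59 to 0.00097, Col5a1 from -0.20 to 0.13, Col8a1 from -0.0017 to 0.15, Col9a1 from -0.14 to 0.10, Col9a3 from -0.22 to 0.049, Gata1 from -0.55 to 0.027 and Serpinh1 from -0.082 to 0.067. Of 1456 alternative values 1311 kept direction and side of the threshold. Besides the number of arrays, signal over background limits Lum and Itga2, well above it on 4 of the 8 arrays.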
